A study of Avicennia germinans with 18 samples.

Results

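Leaves and stems of the same seedlings were compared in Avicennia germinans, a mangrove tree, at the forest that the labels call humid. Seedlings 1, 2 and 3 of that forest each gave a leaf and a stem library, so the comparison held 6 of the 18 libraries of the series, taken from the labels and paired by seedling number. It covered all transcripts of the deposited count table. The seedlings had germinated and grown in the field. They were then kept for 72 h in pots of 3 L with soil from the mangrove, shaded and watered, before harvest, and this held for every group used here. The other libraries came from the roots of the same seedlings and from leaves, stems and roots of 3 seedlings of the forest that the labels call arid. They entered the model, and the humid roots and the arid leaves and stems are given beside the results where they bear on them.

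Leaves are the main site of photosynthesis, and in Avicennia they also carry glands that secrete salt. Stems carry water and ions from root to leaf and sugars back, and hold the cambium that forms wood and bast. In mangroves both organs meet salt that enters with the water stream. The files list transcripts by identifier and do not pair the identifiers with gene names, so the organ labels could not be checked on marker genes, and no function is given for any transcript. The identifiers come in 2 kinds, with and without the prefix non_cod, and this prefix is the only annotation the files hold.

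The counts summed to 9.12, 7.15 and 23.7 M reads in leaves 1, 2 and 3 and to 6.11, 12.9 and 10.1 M reads in stems 1, 2 and 3 (M stands for mega). Taking 3 counts as the most that a count of 0 leaves room for, the detection limit was 0.127 to 0.42 CPM (counts per M reads) in leaf and 0.233 to 0.491 CPM in stem libraries, which covers counting error only. At least 1 read was found in all 3 leaves for 38713 of the 47821 transcripts and in all 3 stems for 41326. Across transcripts, log2 CPM of the leaf libraries correlated with Pearson's r between 0.887 and 0.93, and that of the stem libraries with r between 0.89 and 0.914. Leaf and stem of the same seedling had r of 0.792, 0.873 and 0.879 in seedlings 1, 2 and 3. These correlations run over transcripts, which share libraries, and are descriptive. Barcode names in the labels come in 3 sets of 6 that reuse the same barcodes. If each set held 1 organ, the sequencing pool and the organ cannot be told apart.

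Of 40897 transcripts tested, 1404 (3.43%) differed between leaf and stem, 905 (2.21%) higher in leaf and 499 (1.22%) higher in stem. The test was the quasi-likelihood test of edgeR on counts with the seedling as a block, and a transcript was called at a Benjamini-Hochberg adjusted p under 0.05. An unadjusted p under 0.05 was found for 8489 transcripts (20.8%). The median log2 fold change of leaf over stem was 2.20 among the transcripts higher in leaf and -2.45 among those higher in stem, and the smallest called change was 0.88 in size. At least 4-fold differences were found for 501 of the 905 and for 325 of the 499, and at least 16-fold ones for 181 and 85. Among all tested transcripts, 5.61% had an estimate of at least 4-fold towards leaf and 6.05% towards stem, while at 16-fold the shares were 1.4% towards leaf and 0.712% towards stem. Under upper quartile scaling 738 calls fell to leaf and 732 to stem. With it, the median over all tested transcripts was -0.19 on the log2 scale, against -0.03 under the scaling used throughout. The number of calls depended on every one of the 6 libraries, since leaving out leaf 1, 2 or 3 gave 31, 64 and 649 calls and leaving out stem 1, 2 or 3 gave 48, 226 and 22. The split turned towards stem without stem 1, with 15 calls higher in leaf and 33 in stem, and without stem 3, with 5 in leaf and 17 in stem. Without leaf 1 it was 16 in leaf and 15 in stem. Without the seedling block 671 transcripts were called (1.64%), and DESeq2 called 4955 (12.1%). In bulk tissue, fewer cells of a type and less RNA per cell cannot be told apart, in this and every later result.

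**Figure D1:**
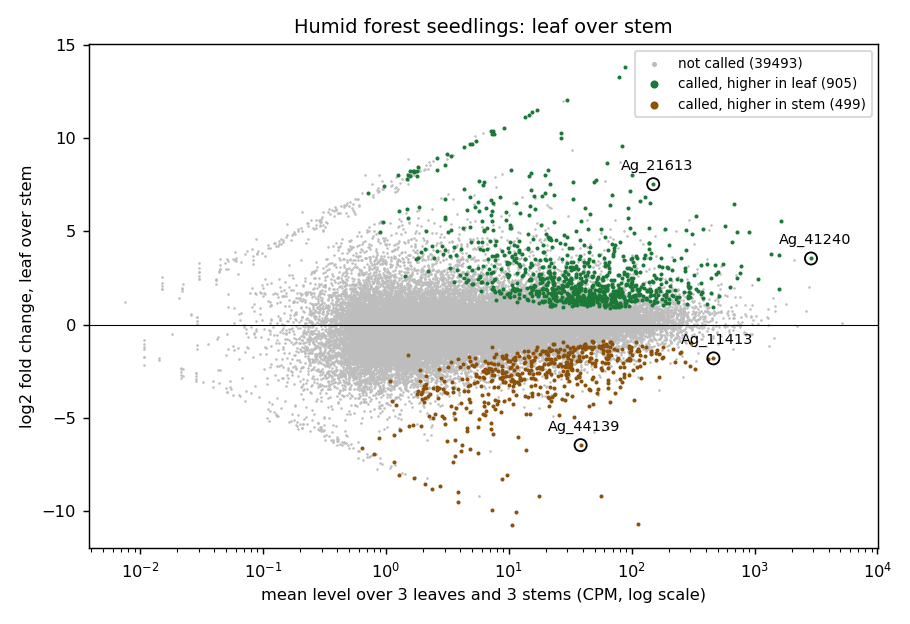
Log2 fold change of leaf over stem in humid seedlings (y axis) against the mean level over the 3 leaf and 3 stem libraries in CPM (log scale x axis), 1 point per tested transcript. Green points are the 905 called higher in leaf, brown points the 499 called higher in stem, and open circles mark the 4 transcripts described by identifier. Calls gather above about 1 CPM, and no call has a log2 fold change under 0.88 in size.

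Among transcripts called higher in leaf, Ag_41240 had the largest difference of mean CPM. CPM of transcripts are given per M reads on tested transcripts after TMM scaling (trimmed mean of M-values), while the detection limits above use unscaled totals. It had 5694, 3421 and 6777 CPM in leaves 1, 2 and 3, against 671, 237 and 489 CPM in stems 1, 2 and 3. All leaves lay far above all stems, and it ranked first among all transcripts by mean level in leaf and 86th in stem. On the log2 scale leaf was 3.54 higher (SE 0.75), with an edgeR adjusted p of 0.0283. The means were 5297 ± 1713 CPM in leaf and 466 ± 218 CPM in stem (SD, n = 3 each). Humid roots were low too, at 278 ± 62.2 CPM. The arid seedlings had 1576, 10825 and 4505 CPM in leaves 1, 2 and 3, against 6024, 6002 and 8794 CPM in stems 1, 2 and 3. There the leaf was lower than its own stem in seedlings 1 and 3 and higher in seedling 2, and the log2 fold change of -0.34 had an SE of 0.72 and an edgeR adjusted p of 0.849. The difference between the forests in this contrast, 3.88 on the log2 scale (SE 1.02), had an edgeR adjusted p of 0.398 and a DESeq2 adjusted p of 0.00718.

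Among transcripts called higher in leaf with reads in all 6 libraries and a mean of at least 10 CPM in leaf, the largest fold was that of Ag_21613. It was counted 3524, 2198 and 3613 times in leaves 1, 2 and 3 and 6, 91 and 2 times in stems 1, 2 and 3. These counts correspond to 440, 290 and 162 CPM in the leaves, against 0.801, 5.87 and 0.17 CPM in the stems. The ratio of leaf to its own stem was smallest in seedling 2, at 49.5, and no leaf came near a stem. The fitted difference was 7.53 on the log2 scale (SE 1.31), with an edgeR adjusted p of 0.0175. In humid roots it was counted 0, 0 and 6 times. The arid seedlings showed the same direction in each pair, with 174, 238 and 4.12 CPM in leaves 1, 2 and 3, against 1.59, 0.977 and 0.915 CPM in stems 1, 2 and 3. Arid leaf 3 was far below the other arid leaves. The arid log2 fold change of 6.04 (SE 1.33) had an edgeR adjusted p of 0.0671 and a DESeq2 adjusted p of 0.00198. The difference between the forests in this contrast had an edgeR adjusted p of 0.831 and a DESeq2 adjusted p of 0.786. Arid roots 1, 2 and 3 had 98.8, 18.3 and 5.37 CPM, above every humid root.

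Among transcripts called higher in stem, Ag_11413 had the largest difference of mean CPM. It had 119, 258 and 246 CPM in leaves 1, 2 and 3, against 535, 874 and 746 CPM in stems 1, 2 and 3. The groups did not overlap, and the stem exceeded the own leaf 4.49-fold, 3.39-fold and 3.04-fold in seedlings 1, 2 and 3. The fitted log2 fold change of -1.81 (SE 0.44) had an edgeR adjusted p of 0.0422, and without the seedling block the edgeR adjusted p was 0.0888. Humid roots had 167 ± 63.2 CPM (SD, n = 3), which overlapped the leaves. In arid seedlings the leaves had 166 ± 120 CPM and the stems 230 ± 111 CPM, and the log2 fold change of -0.59 (SE 0.43) had an edgeR adjusted p of 0.504. The difference between the forests in this contrast had an edgeR adjusted p of 0.63 and a DESeq2 adjusted p of 0.41.

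The largest fold towards stem, by the same rule with 10 CPM in stem, was that of Ag_44139. It was counted 2, 2 and 62 times in leaves 1, 2 and 3 and 556, 1090 and 973 times in stems 1, 2 and 3. The 3 stems were close to each other at 74.3, 70.3 and 82.7 CPM, while leaf 3 at 2.78 CPM stood above leaves 1 and 2 at 0.249 and 0.264 CPM. The fitted log2 fold change of -6.47 (SE 1.47) had an edgeR adjusted p of 0.0344. It was low in humid roots as well, with 1.19 ± 1.03 CPM (SD, n = 3). In the arid seedlings it was low in both organs, with 2.59, 0 and 0.405 CPM in leaves 1, 2 and 3 and 0, 3.91 and 7.78 CPM in stems 1, 2 and 3. All 3 humid stems thus lay above every other library of the series. The difference between the forests in this contrast had an edgeR adjusted p of 0.614 and a DESeq2 adjusted p of 0.465. For each of these 4 transcripts the sign held in all 22 alternatives run. The call was lost for Ag_41240, Ag_11413 and Ag_44139 when any 1 of the 6 libraries was left out, for Ag_11413 also without arid stem 3, and for Ag_21613 without leaf 1, leaf 2, stem 1 or stem 3. The highest edgeR adjusted p among these was 0.22, for Ag_11413.

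**Figure D2:**
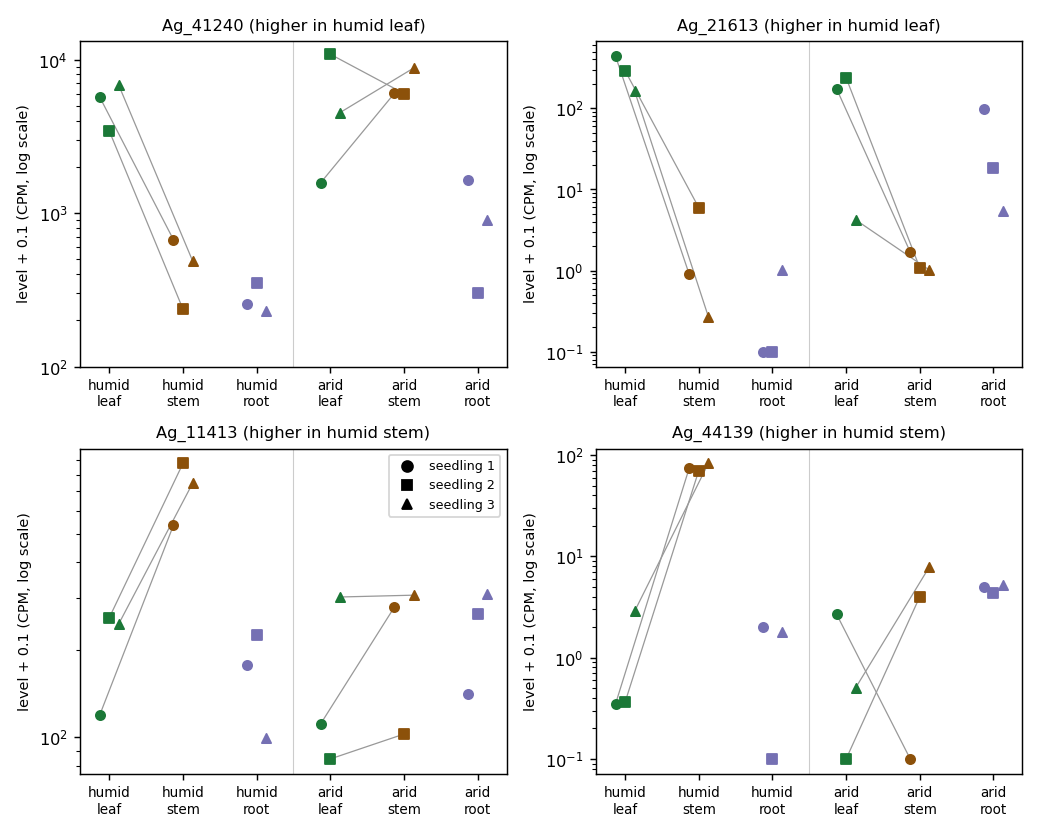
Level of the 4 transcripts in every library, as CPM + 0.1 on a log scale, by group, with circles, squares and triangles for seedlings 1, 2 and 3 and grey lines joining leaf and stem of a seedling. The humid leaf and stem libraries are apart in all 4 panels, whereas the arid ones are apart only for Ag_21613. The difference between the forests was called by edgeR for none of the 4, and by DESeq2 only for Ag_41240.

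The prefix non_cod was carried by 11.8% of the called and by 32.5% of the tested transcripts. Of 13289 tested, 165 (1.24%) were called, 106 higher in leaf and 59 higher in stem. Of 27608 without the prefix, 1239 (4.49%) were called, 799 higher in leaf and 440 higher in stem. The split between the organs had 64.2% of the calls higher in leaf for non_cod and 64.5% for the others. The share of calls moved with the level of the transcripts, and most non_cod transcripts had means under 10 CPM. Among transcripts with a mean between 10 and 100 CPM, 7.07% of 1019 non_cod and 6.32% of 12841 other transcripts were called. Between 1 and 10 CPM the shares were 0.98% of 7759 and 2.28% of 10271. From 100 CPM, 14 of 90 non_cod transcripts were called (15.6%), 13 of them higher in leaf, against 190 of 1732 others (11%). No test of the prefix itself was made. CPM is not corrected for transcript length, so these classes order transcripts by reads and not by molecules.

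The calls leaned towards leaf at high levels and not at low ones. With a mean from 100 CPM over the 6 libraries, 166 of 1822 tested were called higher in leaf and 38 higher in stem. Of 13860 transcripts between 10 and 100 CPM, leaf had 594 calls and stem 289. Of 18030 between 1 and 10 CPM, leaf had 141 and stem 169. Under 1 CPM only 7 of 7185 transcripts were called, all with log2 fold changes of at least 4.96 in size. The median log2 fold change of all tested transcripts in these classes was 0.35, 0.16, -0.19 and -0.44 from the highest class to the lowest, under the TMM scaling used throughout.

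The most abundant transcripts took a larger share of reads in leaf than in stem in each of the 3 seedlings, which 3 pairs are too few to call. The 100 most abundant transcripts of a library took 14, 11.9 and 12.1% of reads in leaves 1, 2 and 3, against 10.6, 8.9 and 9.82% in stems 1, 2 and 3. Each leaf lay above each stem, with a mean of 12.7 ± 1.16% in leaf and 9.77 ± 0.851% in stem (SD, n = 3 each). The number of transcripts needed to hold 50% of reads was 2062 ± 329 in leaf and 2647 ± 116 in stem. The percent of reads on non_cod transcripts was 8.89 ± 0.391 in leaf and 9.17 ± 1.06 in stem, which overlapped. Over 6 such measures, 5 gave an exact two-sided paired permutation p of 0.25, the smallest that 3 pairs allow, with an adjusted p of 0.3, and the non_cod share gave 0.75. The 905 transcripts called higher in leaf took 11.4 ± 2.48% of reads in leaves and 2.87 ± 0.158% in stems, and the 499 called higher in stem took 0.731 ± 0.22% in leaves and 3.38 ± 0.0653% in stems. These shares describe the calls and were not tested, since the calls came from the same libraries. Of the 100 most abundant transcripts of leaf and the 100 of stem by mean CPM, 53 were in both lists. A list chosen by the mean in an organ favours calls higher in that organ, so its counts are a description. For comparison, 9.11% of all tested transcripts with a mean from 100 CPM were called higher in leaf and 2.09% higher in stem. The leaf list held 24 transcripts called higher in leaf and none called higher in stem. The stem list held 5 called higher in stem and 2 called higher in leaf.

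**Figure D3:**
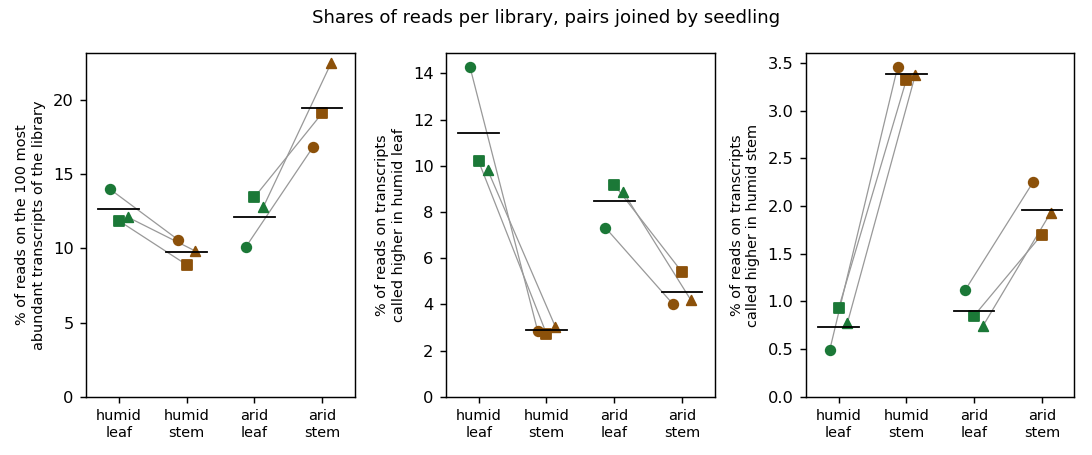
Percent of reads per library on its own 100 most abundant transcripts (left), on the 905 transcripts called higher in humid leaf (middle) and on the 499 called higher in humid stem (right), with black bars for means and grey lines joining leaf and stem of a seedling. The 100 most abundant transcripts took more reads in leaf than in stem in the 3 humid seedlings and fewer in the 3 arid ones.

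A small set of transcripts had reads in only 1 of the organs. At least 10 reads in each leaf and none in any stem were found for 54 transcripts, of which 13 carried the prefix non_cod. The reverse, at least 10 reads in each stem and none in any leaf, was found for 25, of which 8 were non_cod. Bounds on the fold took 3 counts over the 3 libraries at 0 as the limit and used unscaled totals. On this basis the leaf-only transcripts were at least 10.2-fold to at least 1294-fold higher in leaf. The stem-only ones were at least 17.9-fold to at least 465-fold higher in stem. Mean TMM factors were 0.962 in leaf and 1.2 in stem, so TMM scaling would raise the leaf-only bounds and lower the stem-only ones. Of the leaf-only transcripts 47 passed the filter on low counts and 27 were called, and of the stem-only ones all 25 passed and 12 were called. Both sets were chosen from the same 6 libraries as the calls, so these counts are a description. Over all tested transcripts 2.21% were called higher in leaf and 1.22% higher in stem. The arid seedlings had reads of 39 of the 54 leaf-only transcripts in at least 1 stem. The reads there were few, 366 in the 3 arid stems against 10405 in the 3 arid leaves. Only 27 of the 54 had reads in all 3 arid leaves. For the 25 stem-only transcripts the sums were 44 reads in arid leaves and 2820 in arid stems. Of these, 14 had reads in all 3 arid stems and 10 had reads in at least 1 arid leaf. Abundant transcripts weigh most in such sums. Humid roots held reads of 31 of the leaf-only and 18 of the stem-only transcripts.

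Transcripts that lean towards leaf were gathered at certain identifier numbers. The tested transcripts were put in 472 bins of 100 consecutive numbers with at least 20 tested transcripts each, a grouping chosen after the values were seen. The bin medians of the log2 fold change lay within 0.5 of 0 for 426 bins, and none was below -1. In 17 bins the median exceeded 1, with a maximum of 2.81. These bins formed 9 runs of adjacent numbers, among them 7600 to 7999, 21600 to 21799 and 31800 to 32299. They held 1066 tested transcripts, of which 74 (6.94%) were called higher in leaf and none higher in stem, against 831 (2.09%) and 499 of the 39831 others. Of the 54 leaf-only transcripts, 43 had numbers in these bins, and Ag_21613 lies in one of them. The bins were chosen by this contrast, so their humid values are a description with no test. The filter on low counts keeps a transcript with enough reads in as few as 3 of the 18 libraries. Transcripts with few reads can thus pass through their leaf counts alone, which favours a lean towards leaf and leaves little room for calls higher in stem. The part of the filter in these counts was not tested.

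Most transcripts in these bins had few reads. Their median level was 1.25, 1.19 and 1.34 CPM in leaves 1, 2 and 3, against 0, 0.516 and 0.51 CPM in stems 1, 2 and 3. Humid roots 1, 2 and 3 had medians of 0.734, 0.579 and 0.914 CPM, where their detection limits were 0.332, 0.979 and 0.453 CPM. Root 2 and stem 1 lay below their limits, so the place of the roots between leaf and stem is uncertain. With a mean from 10 CPM, 69 transcripts of the bins remained and 26 (37.7%) of them were called higher in leaf, against 734 of 15613 others (4.7%). Their medians were 34.3, 23.6 and 20.8 CPM in leaves 1, 2 and 3 and 3.21, 5.87 and 5.27 CPM in stems 1, 2 and 3. Over all 1066 transcripts the difference was largest in seedling 1. The median leaf-minus-stem difference in log2 CPM was 2.0023 there, and 0.83 and 1.04 in seedlings 2 and 3. This did not hold in every run. At numbers 8400 to 8499, 22000 to 22099, 33600 to 33699 and 33800 to 33899 the seedling 1 median was 0.0. Stem 1 was the shallowest of the 6 libraries, and the part of depth in this was not tested. Arid libraries played no part in the choice of bins, but they entered the filter on low counts. In arid seedlings all 17 medians were above 0, between 0.28 and 1.27. Most other bins were above 0 there too, 346 of 455 (76%), with a median of 0.10 over these bins. Over the 1066 transcripts the arid median was 0.63, against 0.09 for all others. What the transcripts with these numbers encode, and how the numbers were given, is not given in the sources used here.

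**Figure D4:**
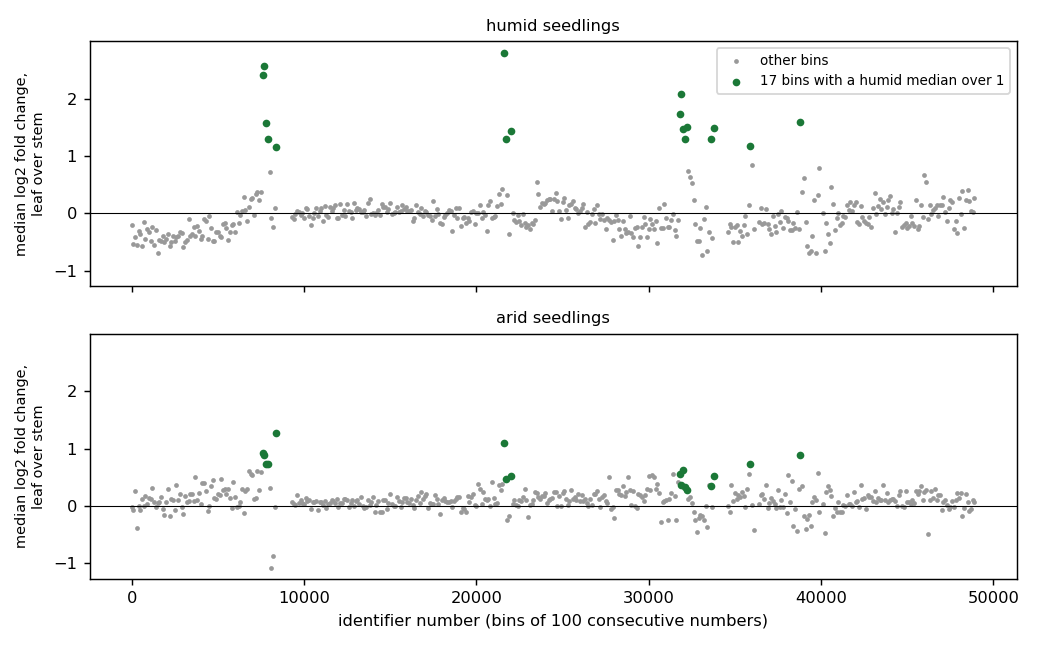
Median log2 fold change of leaf over stem (y axis) in bins of 100 consecutive identifier numbers (x axis), for humid seedlings above and arid seedlings below. Green points are the 17 bins with a humid median over 1, and all of these are above 0 in the arid seedlings, as are 346 of the 455 other bins.

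Humid roots mostly held intermediate levels of the called transcripts. The 905 transcripts higher in leaf had median levels of 58.7 CPM in leaf, 12.8 CPM in stem and 20.9 CPM in root. The median was 20.9, 17.1 and 23.2 CPM in roots 1, 2 and 3, so the 3 roots were alike. The root mean lay between the leaf and stem means for 529 of the 905 (58.5%), below both for 271 and above both for 105. The 499 transcripts higher in stem had medians of 5.29 CPM in leaf, 29.7 CPM in stem and 18 CPM in root, with the root mean between for 308 (61.7%), above both for 145 and below both for 46. Over all tested transcripts the root mean lay between for 29.2%. A called transcript has leaf and stem far apart by the choice of calls, which widens the interval in which a root value can fall.

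The calls were made by a test on pairs of these same 6 libraries, which favours transcripts with 1 sign in all seedlings and with groups apart, so the counts by seedling are a description. Leaf exceeded stem in log2 CPM in all 3 seedlings for 902 of the 905 transcripts higher in leaf, and stem exceeded leaf in all 3 for each of the 499 higher in stem. Among all tested transcripts 51.6% had 1 sign in all 3. All 3 leaves lay above all 3 stems for 896 of the 905, and below for 486 of the 499, where the shares over all tested transcripts were 16.8% and 15.4%. For transcripts higher in leaf the median difference in log2 CPM was 2.58, 1.80 and 1.95 in seedlings 1, 2 and 3, and for those higher in stem it was -2.85, -2.16 and -2.13. Seedling 1 had the largest of the 3 differences for 626 of the 905 and 301 of the 499, and for 53.1% of all tested transcripts. Its stem library was the shallowest of the 6, and the part of depth in this was not tested. The biological coefficient of variation over the 3 seedlings, taken without TMM scaling, was 53.6% in leaf and 45% in stem.

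The same contrast in the 3 arid seedlings shares no library with the humid one, although both rest on 1 estimate of the spread. With edgeR, 200 transcripts were called there (0.489%), of which 91 (0.223%) were higher in arid leaf and 109 (0.267%) in arid stem. This count and its split also moved with single libraries. The count was 87 and 4 without arid leaf 2 and 3, and 12, 1345 and 22 without arid stem 1, 2 and 3. It was 55 and 86 without humid leaf 2 and 3, and 102, 69 and 68 without humid stem 1, 2 and 3. Without arid stem 2, 945 calls were higher in arid leaf and 400 in arid stem. In the other fits listed here the calls higher in leaf did not outnumber those higher in stem. Of the 905 transcripts higher in humid leaf, 824 had a positive estimate in the arid seedlings (91%), and of the 499 higher in humid stem, 444 had a negative one (89%). Over all tested transcripts, 54.4% of the arid estimates were positive. The median log2 fold change of the first group was 2.20 in humid and 1.0005 in arid seedlings, and that of the second -2.45 in humid and -1.21 in arid seedlings. The calls were made on the humid values, which favours larger humid values. With the same sign, 104 of the 1404 were called in the arid seedlings too (7.41%), which was 52% of the arid calls, and 1 was called with the opposite sign. Median standard errors of the 1404 were 0.47 in humid and 0.46 in arid seedlings, but both come from the shared estimate of the spread. Taken by group and without TMM scaling, the biological coefficient of variation was 57.7% in arid leaf and 83.7% in arid stem. In the humid forest it was 53.6% in leaf and 45% in stem.

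Whether the leaf-over-stem difference itself differed between the forests was tested in the same model. No transcript was called by edgeR (smallest adjusted p 0.0772), 3379 (8.26%) had an unadjusted p under 0.05, and DESeq2 called 422 (1.03%). Of the 1404 calls, 455 (32.4%) had an unadjusted p under 0.05 for this difference and 134 were called by DESeq2. Leaving out arid stem 2 gave 61 edgeR calls, and in 5 of these the leaf-over-stem value was higher in humid seedlings and in 56 lower. Without arid stem 2 the humid contrast had 1987 calls and the arid one 1345. Of the 1345, 945 were higher in arid leaf and 400 in arid stem. For the difference between the forests, leaving out humid leaf 3 or arid leaf 2 gave 2 calls each. Across the 40897 transcripts, the log2 fold changes of the 2 forests correlated with Pearson's r of 0.401, given as a description since transcripts share libraries.

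**Figure D5:**
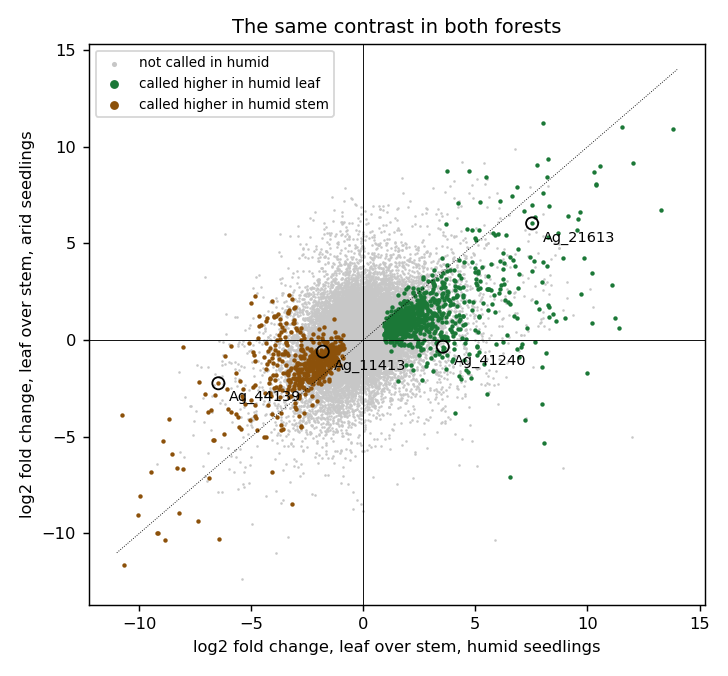
Log2 fold change of leaf over stem in humid (x axis) and arid (y axis) seedlings, 1 point per tested transcript, with the dotted line marking equal values. Most transcripts called in the humid seedlings lie in the quadrants of equal sign (824 of 905 and 444 of 499), and Ag_41240 lies just below 0 on the arid axis.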

How the data were processed

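The authors deposited raw counts of uniquely mapped reads per transcript, without normalization, in a table of all 18 libraries and in a file per library with equal values. The submitters' processing notes name Bowtie 0.12.2 and edgeR. The counting program is not given in the sources used here, nor is the reference transcriptome. All columns were matched to samples by title. Same-numbered libraries of a forest were taken as 1 seedling, since the series' design text describes organs of the same seedlings. Deviations of log2 CPM from the group means correlated with r of 0.203, 0.189 and 0.28 between leaf and stem of humid seedlings 1, 2 and 3.

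From the counts, transcripts were filtered by group (minimum count 10, minimum total 15), which left 40897 of 47821, and scaled by trimmed mean of M-values (TMM) factors. The quasi-likelihood test of edgeR 4.0.16 (R 4.3.3) was fitted to all 18 libraries with the seedling as a block, a mean for each organ and forest and 8 residual degrees of freedom. P-values were adjusted by Benjamini-Hochberg over all tested transcripts. The SE of a log2 fold change was worked back from the test, as its size divided by the square root of the quasi-likelihood F statistic. DESeq2 1.42.0 was an alternative. Log2 CPM used a prior count of 2. The script was tested on simulated counts with known changes. Plots used matplotlib 3.10.9.

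Seedlings are the replicates. With the seedling as a block, edgeR p-values measure how the organ differences varied between seedlings, library preparation included. This spread was pooled over the organs and both forests. Counts of replicates differed beyond sampling noise (lowest chi-square per degree of freedom 18.3). In each direction, 2 transcripts were named among calls with the same sign in all 3 seedlings. These were the one with the largest difference of mean CPM and the one with the largest fold among those with at least 10 CPM in the higher organ and a read in all 6 libraries. The comparison, lists and alternatives were chosen with earlier results of these data known, and the bins of identifier numbers after the values were seen.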

Additional observations from a re-analysis of the deposited data

Results flagged for a closer look

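How the reads were spread over transcripts differed in opposite directions between leaf and stem in the 2 forests, with every humid pair on one side and every arid pair on the other. The percent of reads on the 10 most abundant transcripts was higher by 1.13 in humid leaves than in humid stems, and the arid leaf-minus-stem mean was -4.70. For the 100 most abundant transcripts the leaf-minus-stem means were 2.89 in humid and -7.39 in arid seedlings, and for the 1000 most abundant 5.45 and -5.61. The number of transcripts holding 50% of reads had leaf-minus-stem means of -585 in humid and 445 in arid seedlings. The TMM factor had leaf-minus-stem means of -0.24 in humid and 0.06 in arid seedlings. In each of these 5 measures, an exact permutation of the forest labels over the 6 paired differences gave a two-sided p of 0.1. That is the smallest that 3 against 3 allow. The 5 measures were listed because all humid pairs had the sign opposite to that of all arid pairs. This choice fixes the permutation p at 0.1, so it adds no evidence. The measures rest on the same reads and are not independent. Leaves were alike in the forests, the 100 most abundant transcripts holding 12.7 ± 1.16% of reads in humid and 12.1 ± 1.79% in arid leaves, while stems held 9.77 ± 0.851% in the humid and 19.5 ± 2.82% in the arid forest (SD, n = 3 each).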

How the results depend on the processing

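Each value is a number of called transcripts unless stated otherwise. For humid leaf over stem, with 1404 calls, the fit with no replicate block for the seedling gave 671, of which 633 were among the 1404. DESeq2 gave 4955, of which 1394 were. Fits to the 6 leaf and stem libraries gave 3243 with and 2378 without the block, the second chosen after seeing the data, and the 9 humid libraries gave 2823. Leaving out 1 library gave between 22 and 1987. The percent of calls higher in leaf, 64.5%, was 55.4% by DESeq2, 58.7% with DESeq2 size factors in edgeR, 50.2% under upper quartile scaling, 60.3% with a minimum count of 30, 67.1% with the 9 humid libraries and 61.6% after thinning to the shallowest library. It was between 22.7% and 68% with 1 library left out. For arid leaf over stem, with 200 calls, the fit with no replicate block gave 74 and DESeq2 3373, and leaving out 1 library between 4 and 1345. For the difference between forests, with 0 calls, DESeq2 gave 422 and leaving out 1 library between 0 and 61. The causes were not tested. Scaling, filters and thinning kept the 3 counts within 1.5 times, but a minimum count of 30 and thinning also lowered the number tested. For humid leaf over stem, 1845 of 29190 were called with a minimum count of 30. After thinning 2102 of 28801 were called, against 1404 of 40897 in the main fit. The read-share measures moved by less than the spread between pairs in every alternative run. The paired block is the main fit. Of 7185 transcripts under 1 CPM, 7 were called, and the part of depth in this was not tested.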

Other observations

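Transcripts with identifier numbers below 7600 leaned slightly towards stem in the humid seedlings. Of their 76 bins of 100 numbers, 65 had a median log2 fold change of leaf over stem below 0, against 208 of the other 396 bins. Over their 6640 tested transcripts the median was -0.30 in humid and 0.13 in arid seedlings, both under TMM scaling. Their median level lay between 0.998 and 1.45 CPM in humid leaves and between 1.55 and 1.74 CPM in humid stems. All tested transcripts between 1 and 10 CPM had a humid median of -0.19, those under 1 CPM -0.44 and non_cod ones -0.29. Of the 6640, 37 (0.557%) were called higher in leaf and 52 (0.783%) higher in stem. The shares were 2.21% and 1.22% over all tested transcripts, and 0.782% and 0.937% between 1 and 10 CPM. The part of level in this lean was not tested. The lean was largest in seedling 1, with a median leaf-minus-stem difference in log2 CPM of -0.56, and was -0.09 and -0.14 in seedlings 2 and 3. The prefix non_cod was carried by 52.7% of these transcripts, and the difference between the forests was not tested for this group, which was chosen after its values were seen.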
